A study of Mus musculus with 2 samples.

Results

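The 42 genes described here encode the heat shock proteins and cytosolic chaperones of the mouse, with their cochaperones and the heat shock factors Hsf1 and Hsf2. They were chosen by gene symbol from lists of these families. The choice used no threshold on a value, but it was made with earlier results of these data known. In HT22 cells, an immortalised nerve cell line from mouse hippocampus, mRNA was measured on 1 Affymetrix mouse GeneChip of cells exposed to the neurotrophic compound J147 for 1 h and on 1 array of cells that received the DMSO vehicle for 1 h. Both cultures were plated in DMEM with fetal calf serum the day before. J147 was applied at 10 μM by the methods and at 10 mM by the sample labels. The control received DMSO vehicle by its sample title but is untreated by its treatment label. With 1 array per condition no difference has a replicate check, no p-value can be had, and an effect of J147 and any further difference between the cultures cannot be told apart. Nor can a smaller number of transcribing cells be told apart from less RNA per cell.

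Of the 42 genes, 40 had a probe set in the annotation used, 108 probe sets in all of the 45037 on the array that are not controls. Hsp90ab1 and Hsf1 were not analysed here. The values are gcRMA intensities on the log2 scale, which pile up at a lowest value of 2.23, where levels have no order. After scaling each array to a median of 100, a probe set was scored if its mean over both arrays was above 100. This kept 95 of the 108 probe sets and 39 of the 42 genes, beside 22545 probe sets and 10611 genes of the whole array. A gene was read from its scored probe set with the highest mean, and each difference is the log2 scaled intensity for J147 minus that for vehicle. The scaling lowers every difference by less than 0.01, so the deposited log2 values given below differ by nearly the same amount.

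Heat shock proteins bind unfolded or partly folded proteins and help them fold, refold or be degraded. HSP70 proteins do so in cycles of ATP hydrolysis that HSP40 (J domain) proteins start and nucleotide exchange factors such as BAG proteins and HSP110 end, HSP90 acts later on kinases and steroid receptors, and the ring-shaped chaperonins enclose their substrates. Some of these genes are transcribed at all times, while others are transcribed strongly only under proteotoxic stress, when the factor HSF1 binds heat shock elements, which are inverted repeats of the bases GAA, in their promoters. Neurons rely on the constitutive members and are known to mount a weaker heat shock response than many other cells.

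The inducible HSP70 gene Hspa1b and the related Hspa2 were lower on the J147 array, and most other chaperone genes differed little between the arrays. Of the 39 scored members, 2 were lower for J147 by at least 1.5-fold, against 0.81% of all scored genes, and 0 were at least 1.5-fold higher, against 0.556%. At 2-fold, 1 member was lower, against 0.0754% of all scored genes, and 0 were higher, against 0.066%. At 1.2-fold, 6 members were lower, against 6.23% of all scored genes, and 0 were higher, against 3.6%. In order of size the 6 were Hspa1b, Hspa2, Dnajb1, Bag3, Cryab and Dnajb5. The median difference of the 39 members was 0.00065 and that of all 10611 scored genes was -0.0046. By the deposited values 18 members were lower on the J147 array, 20 were higher and 1 was identical. Of all scored genes, 46.6% were lower, 38.8% higher and 14.7% identical, and these shares also stand beside the counts of lower and higher genes below. The SD of the difference over all scored genes was 0.17, which describes this pair of arrays and is not an error between cultures.

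**Figure D1:**
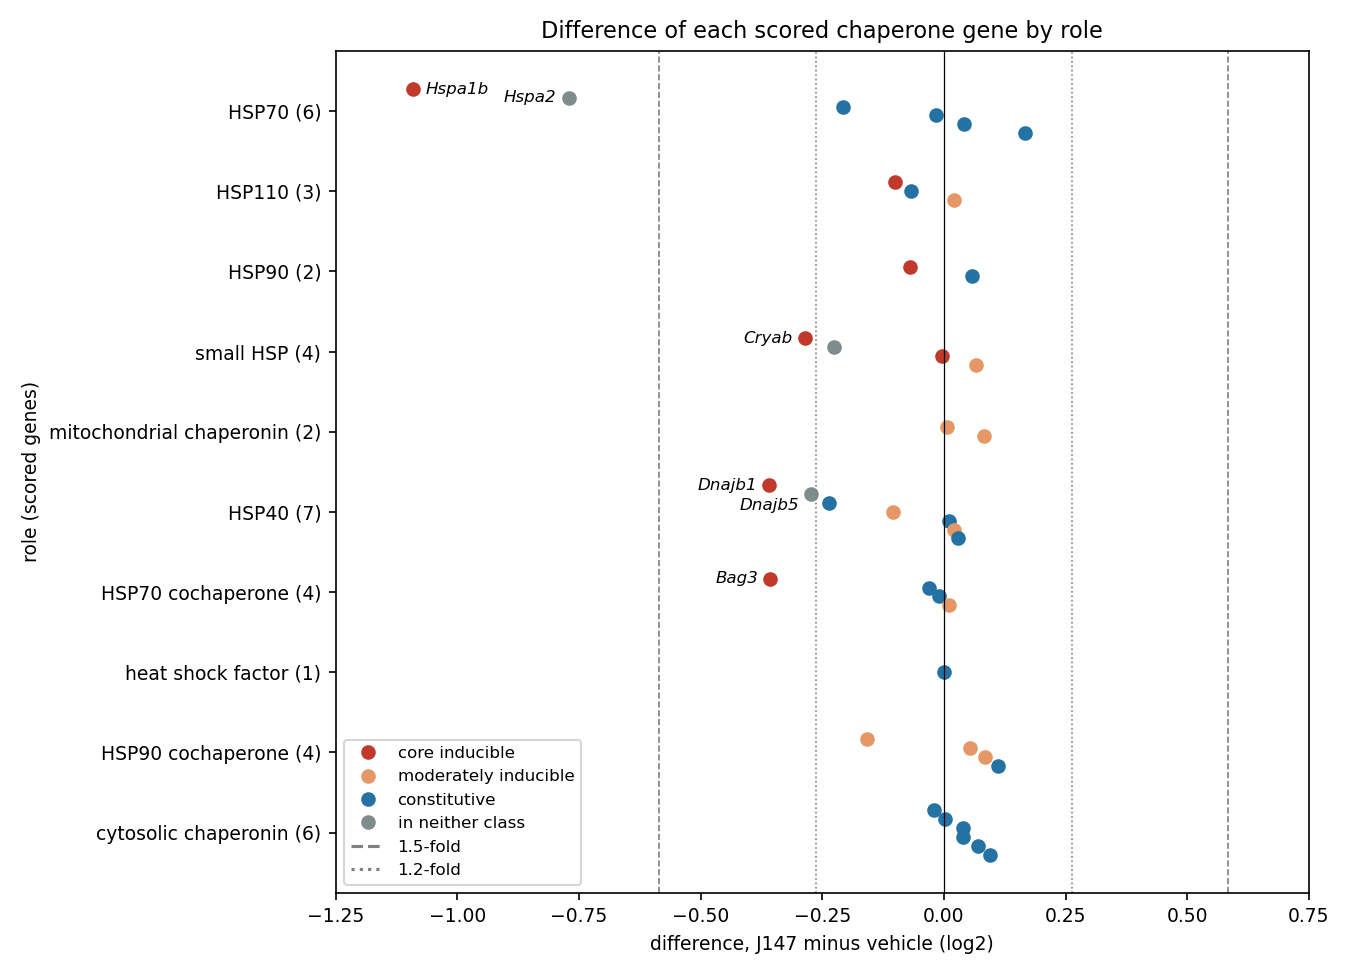
Difference between the arrays, J147 minus vehicle on the log2 scale (horizontal axis), of each of the 39 scored genes (points) by role on the vertical axis, where each role has its count of scored genes, with colours for the classes. Dashed lines mark 1.5-fold and dotted lines 1.2-fold; the 6 genes at least 1.2-fold lower are named, and no gene lies past the dotted line on the right.

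Hspa1b encodes a cytosolic HSP70 that is among the genes most strongly induced by heat. Its 3 probe sets were all lower on the J147 array. Probe set 1452318_a_at had a log2 intensity of 12.33 for vehicle and 11.24 for J147, 1427127_x_at had 11.92 and 10.95, and 1427126_at had 11.23 and 10.04. The differences were -1.09, -0.97 and -1.18, so that the 3 readings lay within 0.21 of each other. By size of difference these probe sets were at places 23, 41 and 11 of the 22545 scored, and by its brightest probe set Hspa1b was the sixth lowest of the 10611 genes, at 2.13-fold lower. Hspa1a, the neighbouring and near-identical gene, was read by the single probe set 1452388_at, which on both arrays held the lowest value. Since the mRNAs of Hspa1a and Hspa1b share most of their sequence, the Hspa1b probe sets may read both genes. The suffixes _a and _x mark probe sets that can bind more than 1 transcript, which need not be of different genes, and 1427126_at has neither suffix.

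Hspa2, an HSP70 that is abundant in testis and is also found in brain, was read by 1 probe set, 1417101_at. Its log2 intensity was 6.78 for vehicle and 6.01 for J147, which is 1.71-fold lower, at rank 27 from the lowest of the scored genes and place 117 by size among the scored probe sets. No other HSP70 gene reached 1.2-fold. Hspa8, the constitutive cytosolic HSP70 (Hsc70), was nearly equal on the arrays, at 14.91 (log2) for vehicle and 14.89 for J147 by its brightest probe set. Its other 3 probe sets had differences of -0.22, -0.09 and 0.17, so the readings of this gene lay on both sides of 0. The mitochondrial HSP70 Hspa9 had a difference of 0.04. Hspa13, an HSP70 of the endoplasmic reticulum, had -0.21 by its brightest probe set, although another of its probe sets had 0.13. Hspa14, which works with the ribosome, had the highest difference of all 39 members, 0.17, which is less than 1.2-fold.

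**Figure D2:**
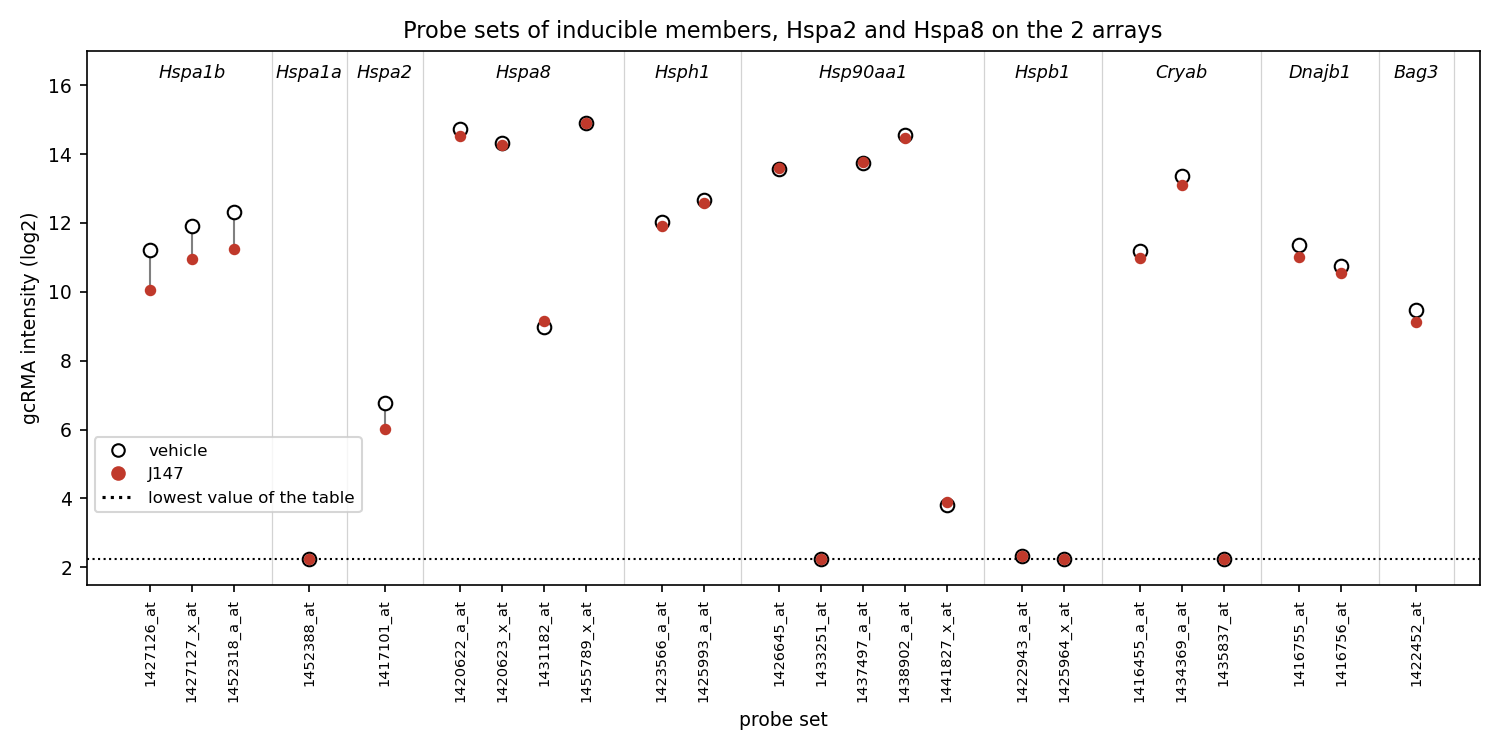
The vertical axis is the gcRMA intensity (log2) as deposited and the horizontal axis lists the probe sets of the 8 core inducible genes, Hspa2 and Hspa8. Open circles are vehicle and filled circles J147, 1 array each, the 3 probe sets of Hspa1b and that of Hspa2 show the longest grey lines between them, and a dotted line marks the lowest value, 2.23.

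Of the other strongly inducible genes, 3 were between 1.2-fold and 1.5-fold lower on the J147 array. Dnajb1 encodes the HSP40 that is induced together with HSP70 and starts its ATPase cycle. Its probe sets went from log2 intensities of 11.36 for vehicle to 11.01 for J147 and from 10.75 to 10.54, with differences of -0.36 and -0.22. Bag3, a cochaperone that links HSP70 and small heat shock proteins to autophagy, went from 9.47 to 9.12, a difference of -0.36 by its only probe set. Cryab encodes the small heat shock protein αB-crystallin. Its probe sets went from 13.37 to 13.09 and from 11.19 to 10.97, with differences of -0.29 and -0.22, and a further probe set held the lowest value on each array. All 5 measured readings of these 3 genes were thus lower for J147. Their ranks from the lowest of the 10611 scored genes were 335 for Dnajb1, 341 for Bag3 and 565 for Cryab.

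The remaining inducible genes differed less. Hsph1, the inducible HSP110 that exchanges nucleotide on HSP70, went from 12.66 for vehicle to 12.57 for J147, and its probe sets had differences of -0.10 and -0.11. Hsp90aa1, the inducible cytosolic HSP90, went from 14.54 (log2) for vehicle to 14.48 for J147 by its brightest probe set, a difference of -0.07. Its other 3 scored probe sets had differences of 0.01, 0.03 and 0.11, so no direction can be read for this gene. Hspb1, the small heat shock protein HSP25 of the mouse, had a log2 intensity of 2.33 on both arrays. This passed the filter but is so near the lowest value that it says nothing about a change.

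The promoter windows of the members were searched for exact matches to a heat shock element, to be set beside these values. RefSeq windows of GRCm38.p6, which run from 250 bases before to 50 bases after the start site of a gene, were found for 33 of the 42 genes, 46 windows in all. A 2-unit element was taken as GAANNTTC or TTCNNGAA, each its own reverse complement, and a 3-unit element as GAANNTTCNNGAA or TTCNNGAANNTTC, which read the same site from either strand. A 3-unit element holds 2-unit elements that overlap. At least one 2-unit element was found in 19 of the 46 member windows, 41.3%, against 15.1% of all 32851 windows, and a 3-unit element in 7 windows, 15.2%, against 0.603%. Some member windows overlap, so these counts are not of independent sequences.

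Shown first are the windows of Hspa1b (chr17:34959189-34959488, minus strand) and Hspa1a (chr17:34972107-34972406, minus strand), the gene with the largest difference and its unmeasured copy, with the 2-unit element matches in capitals in this and the next set. The windows are identical at 296 of 300 positions, and in both the match runs from base -104 to -97, counted from the start site as 0.
Hspa1b: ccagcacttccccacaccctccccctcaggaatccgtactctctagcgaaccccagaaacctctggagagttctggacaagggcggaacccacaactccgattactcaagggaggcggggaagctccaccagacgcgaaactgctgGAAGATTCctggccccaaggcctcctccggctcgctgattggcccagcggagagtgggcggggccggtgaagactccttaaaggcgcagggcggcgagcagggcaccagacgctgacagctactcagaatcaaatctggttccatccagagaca
Hspa1a: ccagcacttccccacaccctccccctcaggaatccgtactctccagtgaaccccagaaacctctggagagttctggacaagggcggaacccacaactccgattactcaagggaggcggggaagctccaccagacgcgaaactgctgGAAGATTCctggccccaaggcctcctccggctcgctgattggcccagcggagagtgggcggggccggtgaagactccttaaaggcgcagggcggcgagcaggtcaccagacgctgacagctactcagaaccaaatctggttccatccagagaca

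The next 4 windows set 2 genes that were lower on the J147 array beside 2 that differed less and carry 3-unit elements. Bag3 (chr7:128523333-128523632, plus strand) holds one 2-unit element after its start site. That element runs from base 42 to 49 and ends with the window, so a further unit past it would not be seen. Hspa2 (chr12:76404120-76404419, plus strand) holds no match in this window. Chordc1 (chr9:18292017-18292316, plus strand), a zinc-binding cochaperone of HSP90, holds 3 overlapping 3-unit elements and had a difference of -0.16. Hspe1 (chr1:55087898-55088197, plus strand), the mitochondrial HSP10, holds 2 overlapping 3-unit elements and had a difference of 0.08, and the same site lies in a window of the divergently transcribed Hspd1, the mitochondrial HSP60, which had a difference of 0.01.
Bag3: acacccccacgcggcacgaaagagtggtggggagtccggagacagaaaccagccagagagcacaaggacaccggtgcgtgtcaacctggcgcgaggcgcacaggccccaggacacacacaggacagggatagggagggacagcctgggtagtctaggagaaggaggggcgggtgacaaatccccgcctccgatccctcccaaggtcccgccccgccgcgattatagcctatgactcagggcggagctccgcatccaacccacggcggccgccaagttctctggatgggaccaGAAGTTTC
Hspa2: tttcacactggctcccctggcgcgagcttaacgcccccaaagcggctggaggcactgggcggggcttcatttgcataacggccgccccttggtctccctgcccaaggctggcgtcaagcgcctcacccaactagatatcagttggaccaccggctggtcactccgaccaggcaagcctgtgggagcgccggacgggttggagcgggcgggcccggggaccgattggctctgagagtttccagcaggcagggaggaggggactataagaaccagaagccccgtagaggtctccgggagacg
Chordc1: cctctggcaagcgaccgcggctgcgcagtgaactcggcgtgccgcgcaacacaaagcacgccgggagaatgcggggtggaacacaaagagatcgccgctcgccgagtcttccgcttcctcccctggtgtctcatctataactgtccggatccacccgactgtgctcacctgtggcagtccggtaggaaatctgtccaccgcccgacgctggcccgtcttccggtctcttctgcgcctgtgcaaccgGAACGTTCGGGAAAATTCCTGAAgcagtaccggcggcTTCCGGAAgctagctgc
Hspe1: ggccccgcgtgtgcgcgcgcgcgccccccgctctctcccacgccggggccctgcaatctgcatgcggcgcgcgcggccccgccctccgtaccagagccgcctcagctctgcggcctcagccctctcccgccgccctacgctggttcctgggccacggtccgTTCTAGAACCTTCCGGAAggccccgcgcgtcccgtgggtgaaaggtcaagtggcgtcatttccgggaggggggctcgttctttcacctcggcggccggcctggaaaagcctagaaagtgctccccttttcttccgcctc

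Among members with a window, those with and without these letters overlapped in their differences. The 5 scored genes with a 3-unit element (Chordc1, Hsph1, Hspd1, Dnajb6 and Hspe1) had a median difference of 0.01 and ran from -0.16 to 0.08. The 11 scored genes with a 2-unit element alone had a median of 0.0016, from -1.09 for Hspa1b to 0.11 for the HSP90 cochaperone Cdc37. The 16 scored genes with a window but no match had a median of 0.01, from -0.77 for Hspa2 to 0.17 for Hspa14, and this group includes Dnajb1. A further 7 scored genes had no window and are outside this comparison, among them Cryab, Hsp90aa1 and Hspa8. Their median was -0.03, from -0.29 for Cryab to 0.04 for Hspa9. A match describes the sequence only and does not show that a factor bound there. Only exact matches within these windows were sought, so a missing match does not show that a gene lacks an element. A 2-unit match at the edge of a window, as in Bag3, may be part of a longer element.

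**Figure D3:**
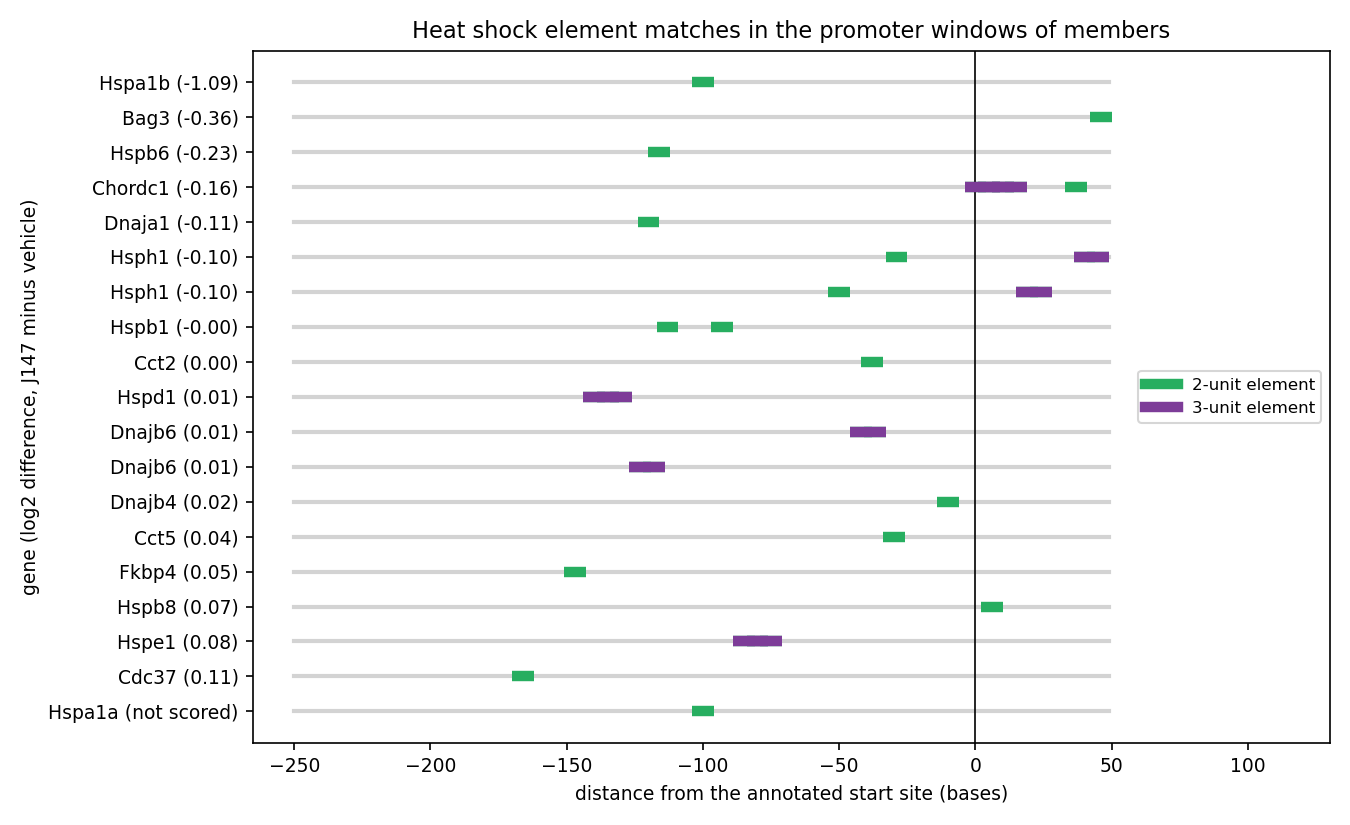
Position of heat shock element matches (bars) in the promoter windows (grey lines) of member genes with at least 1 match, as the distance from the annotated start site in bases (horizontal axis), with the genes ordered by their log2 difference, J147 minus vehicle (vertical axis). The 3-unit matches (purple) lie in genes with differences from -0.16 to 0.08, while Hspa1b, at -1.09, has a 2-unit match (green).

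The members were also divided into genes that heat induces strongly (core inducible), those it induces more moderately and constitutive ones. These classes follow what is known of each gene but were drawn with earlier results of these data known, so the values of the classes are a description and not independent evidence of a direction. The 8 core inducible genes (Hspa1a, Hspa1b, Hsph1, Hsp90aa1, Hspb1, Cryab, Dnajb1 and Bag3) had 7 scored genes with a median difference of -0.29, of which 6 were lower and 1 was identical. Among all scored genes 46.6% were lower, 38.8% higher and 14.7% identical. The 6 include Hsp90aa1, whose other scored probe sets were higher, and the identical gene is Hspb1, which lies near the lowest value. Of these 7, 4 were at least 1.2-fold lower, against 6.23% of all scored genes, and 0 were 1.2-fold higher, against 3.6%. The 19 scored constitutive genes had a median of 0.0094, with 7 lower and 12 higher. By their brightest probe sets, 0 of them were 1.2-fold different in either direction, against 6.23% (lower) and 3.6% (higher) of all scored genes. Dimmer probe sets of Dnaja2, at 0.33 and 0.41, and of Cct4, at 0.46, were past 1.2-fold, and none was on the lower side. The medians differed by -0.29, with no test, since there was 1 array per condition. Without Hspa1a and Hspa1b, the median of the core genes was -0.19.

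The contrast rests on which genes are called inducible. A further 10 members, which heat induces more moderately, were kept apart (Dnaja1, Hspb8, Hspa4l, Hspd1, Hspe1, Chordc1, Ahsa1, Stip1, Fkbp4 and Dnajb4). All 10 were scored, with a median of 0.02, 2 lower and 8 higher, against 46.6% lower and 38.8% higher among all scored genes. Dimmer probe sets of Dnaja1, at -0.31, and of Ahsa1, at 0.34, were past 1.2-fold. By their brightest probe sets, 0 of the 10 genes were 1.2-fold different, against the same 6.23% and 3.6%. With these added to the core genes, the median of the 17 scored inducible genes was -0.0046, the value of Hspb1 and of any gene with identical deposited values, and the medians of inducible and constitutive genes differed by -0.014.

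**Figure D4:**
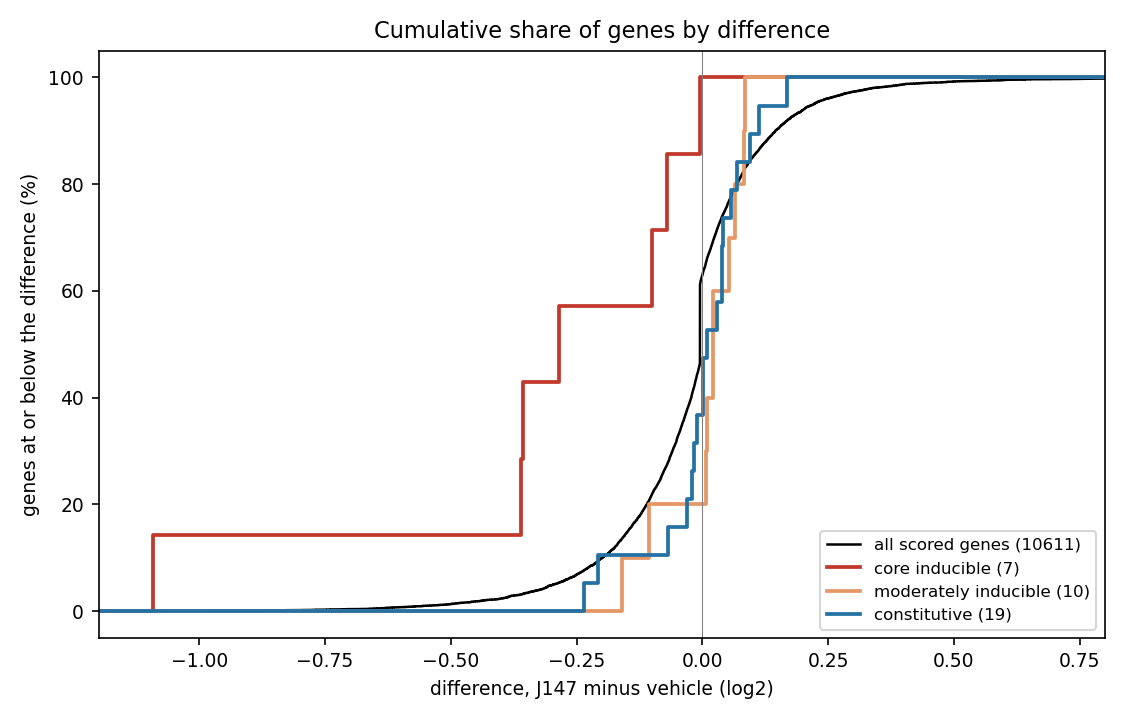
Share of genes in percent (vertical axis) at or below each difference, J147 minus vehicle on the log2 scale (horizontal axis), for the core inducible (7), moderately inducible (10) and constitutive (19) genes and for all 10611 scored genes. The core inducible curve lies to the left of the others, with Hspa1b at -1.09 as its lowest gene, and the other member curves rise near 0.

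**Figure D5:**
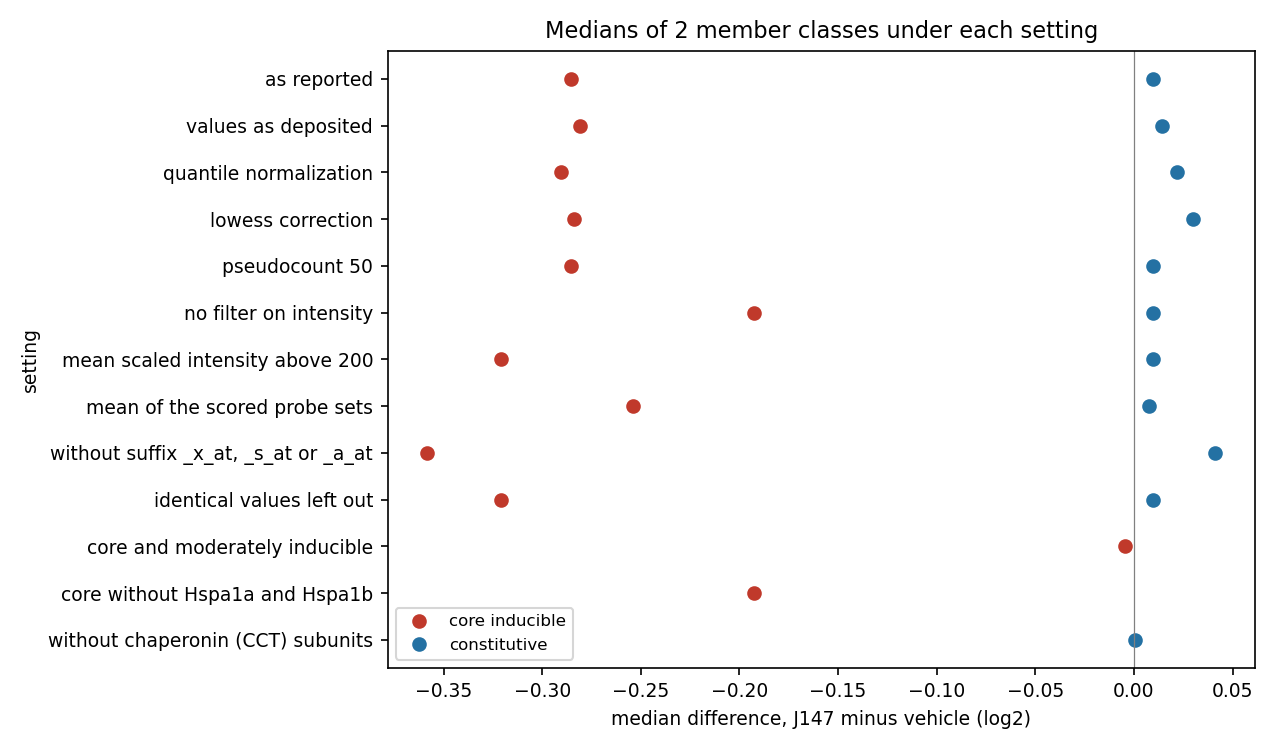
Median difference, J147 minus vehicle on the log2 scale (horizontal axis), of the core inducible and constitutive genes under each setting (vertical axis). The core inducible median runs from -0.36 to -0.0046, which it takes when the moderately inducible genes are added, and the constitutive median stays between 0.00065 and 0.04.

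The HSP40 genes, whose J domain drives ATP hydrolysis by HSP70, had a median difference of -0.11 over 7 genes, of which 4 were lower and 3 higher. Without probe sets of the suffixes _x, _s and _a that median was -0.0023. Besides Dnajb1, Dnajb5 was 1.21-fold lower, from a log2 intensity of 5.26 for vehicle to 4.99 for J147, at a low level. Dnajb2, which is known from neurons, had -0.24 by its only probe set. Of the paired genes Dnaja1 and Dnaja2, the first had 3 scored probe sets, all lower, with differences of -0.11, -0.31 and -0.21. The second had 4, all higher, with differences of 0.03 by the brightest, 0.12, 0.33 and 0.41. Dnajb4 had 0.02 and Dnajb6, a suppressor of polyglutamine aggregation, had 0.0094.

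The HSP110 genes had a median of -0.07 over 3 genes, from -0.10 for Hsph1 and -0.07 for the constitutive Hspa4 to 0.02 for Hspa4l. A dimmer probe set of Hspa4 had -0.25, while others of this gene held identical values on the arrays. Of the HSP90 genes measured, Hsp90aa1 is given above and Trap1, the mitochondrial HSP90, had 0.06. Of the small heat shock proteins, Hspb6, which is abundant in muscle, was 1.17-fold lower, from 8.95 for vehicle to 8.73 for J147. Hspb8, the partner of BAG3, had 0.07 by its brightest probe set and 0.19 by the next. The 4 cochaperones of HSP70 had a median of -0.02. Apart from Bag3 they differed little by their brightest probe sets, with -0.03 for St13, -0.01 for Bag1 and 0.0096 for Stip1, which joins HSP70 to HSP90. The dimmer probe sets of St13 had -0.03 and 0.22, so its readings lay on both sides of 0. The 4 cochaperones of HSP90 had a median of 0.07, from -0.16 for Chordc1 to 0.11 for Cdc37, which delivers kinases to HSP90. Ahsa1, which stimulates the HSP90 ATPase, had 0.08 by its brightest probe set and 0.34 by the other, which was at a low level. The immunophilin Fkbp4 had 0.05. The heat shock factor Hsf2 was at 6.47 (log2) on both arrays.

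The cytosolic chaperonin CCT folds actin and tubulin and is a double ring of related subunits. The 6 subunit genes that are members had a median of 0.04, with 5 higher and 1 lower, from -0.02 for Cct8 to 0.09 for Cct3. Of the others Tcp1 had 0.07, Cct5 and Cct4 had 0.04 each and Cct2 had 0.0016. Of single probe sets, 1430034_at of Cct4 had the largest difference, 0.46, going from 5.69 (log2) for vehicle to 6.15 for J147. The brighter probe sets of Cct4 had 0.04, -0.09 and 0.07. Over all members, 23 genes had at least 2 scored probe sets whose values differed between the arrays. In 7 of these all such probe sets were lower for J147, in 6 all were higher, and in 10 they lay on both sides. The median spread between the probe sets of a gene was 0.15, so a difference of that size in 1 probe set is within the disagreement between readings of a gene.

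Other genes of 6 lists, of which 5 hold chaperones, cochaperones and heat shock factors and 1 holds other targets of HSF1 that are mostly not chaperones, had 89 scored of 117, with a median of -0.02, 46 lower, 40 higher and 3 identical. Of these 89, 0 were at least 1.5-fold lower and 1 (1.12%) was at least 1.5-fold higher, against 0.81% and 0.556% of all scored genes. At 1.2-fold, 1 (1.12%) was lower and 4 (4.49%) were higher, against 6.23% and 3.6%. The 15 chaperones of the endoplasmic reticulum had a median of -0.08, with 12 lower and 3 higher, against 46.6% and 38.8% of all scored genes. The largest differences among them were -0.27 for Sdf2l1 and -0.17 for Serpinh1, the collagen chaperone HSP47, while Hspa5 (BiP), the HSP70 of this compartment, had -0.08. The 14 scored prefoldin, tubulin cofactor and further CCT genes had a median of 0.0079, from -0.11 for Pfdn5 to 0.15 for Pfdn4. The 26 scored genes of other J proteins had a median of 0.001, from -0.26 for Dnajc14 to 0.26 for Dnajc22 and 0.37 for Dnajc27. The 22 other cochaperones had -0.0068, from -0.25 for Bag4 to 0.27 for Bag5. Of 15 further heat shock factors, small heat shock proteins and HSP70 genes, 4 were scored, with a median of -0.05, from -0.14 for Hspa12a and -0.06 for Hspb2 to 0.01 for Hsbp1. The 8 scored genes of a list of other genes that heat can induce through HSF1 had a median of 0.12, opposite in sign to that of the core inducible chaperones, but 0.036 with no filter on intensity and 0.0019 without the suffixes named above. The gene of this list past 1.5-fold was Gadd45b, a stress gene that many other signals also induce, at 0.69, and the next was the arsenite-inducible Zfand2a at 0.29. Ier5, a feedback gene of HSF1, had -0.06.

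Over the whole pair of arrays, 1.64% of scored probe sets differed by at least 1.5-fold, and 18.9% held 1 identical value on both. Of the controls, the 18 hybridization spikes had a median difference of 0.13, the 27 labelling spikes -0.15 and the 3 probe sets of 18S rRNA -0.63. The gap between 3′ and 5′ probe sets changed by -0.06 for Gapdh and -0.03 for Actb. The part of these in the lower values of Hspa1b and the other inducible genes was not tested. Of 8 neuronal markers, 7 were within 0.01 of the lowest value on both arrays and Tubb3 was above it, while all 6 fibroblast markers were above it, as were 2 of 5 astrocyte, 1 of 4 microglial, 0 of 2 oligodendrocyte and 0 of 3 endothelial markers. Of the defining markers Map2, Rbfox3 and Snap25 of neurons were thus not measured above the lowest value, against the label of a nerve cell line.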

How the data were processed

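The authors hybridized biotin-labelled RNA of HT22 cells to 2 Affymetrix arrays, 1 per condition, computed log2 intensities with gcRMA in R, and deposited these. Affymetrix Expression Console, version 1.0 in the submitters' processing notes, served for quality checks. Neither the gcRMA version nor a genome build is given in the sources used here. The scaling and the filter that the methods describe were applied here: a median of 100 (45037 probe sets, controls left out) and a mean above 100 over both arrays. The number of arrays limits the precision. Symbols come from an array annotation in which 34945 probe sets have 1 gene, and were updated by Entrez number to RefSeq (GRCm38.p6), and promoter windows are those of RefSeq.

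The members, their classes and the other lists were chosen with earlier results of these data known. Named are all members, in full the core inducible genes, their counterpart Hspa8 and any member at least 1.5-fold different, and of each role group and other list the 2 largest differences or those past 1.5-fold, together with others picked to show a role or a range. The promoter windows printed were picked after the values were seen. No test was possible. Alternatives were the deposited scale, quantile normalization, a lowess correction (span 0.3), a pseudocount of 50, no filter or a mean above 200, other ways to combine probe sets, identical values left out, other folds and other lists. The calculation used Python 3.11.15, numpy 2.4.6, pandas 2.3.3, statsmodels 0.14.6, biopython 1.88 and matplotlib 3.10.9. It was tested on simulated data of this comparison, with 22545 probe sets scored, in which all 200 probe sets given a known fold were recovered in the right direction. The folds were set without noise, so this checks the calculation only and says nothing about the precision of a difference between 2 arrays.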

Additional observations from a re-analysis of the deposited data

How the results depend on the processing

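The alternatives gave 287 values. Of these, 270 lay near the value reported (counts within 1.5 times, medians within 0.05 and single probe sets within 1 SD of all scored ones) and 17 moved further. A change of sign was looked for only in single probe sets at least 1.5-fold different, those of Hspa1b and Hspa2, and 0 were found. Some medians near 0 did change sign. That of all members went from 0.00065 to -0.010 when the scored probe sets of a gene were averaged. The core inducible median of -0.29 became -0.19 with no filter on intensity, -0.36 without the suffixes _x_at, _s_at and _a_at, -0.0046 with the moderately inducible genes and -0.19 without Hspa1a and Hspa1b. The difference between inducible and constitutive medians, also -0.29, became -0.20 (no filter), -0.40 (without the suffixes), -0.014 (with the moderately inducible genes) and -0.20 (without Hspa1a and Hspa1b). With no filter the HSP70 median of -0.11 became -0.016 and that of the other heat-induced genes, 0.12, became 0.036. When the scored probe sets of a gene were averaged, the HSP70 median became -0.029. Without the suffixes the HSP40 median of -0.11 became -0.0023 and that of the other heat-induced genes 0.0019. The median of the small heat shock proteins, -0.12, became -0.23 with a mean above 200 and with identical values left out. The 2 members at least 1.5-fold lower became 6 at 1.2-fold and 1 at 2-fold, by construction. Added or removed genes change a median of few genes. With no filter, Hspa1a, at the lowest value on both arrays, joined the core inducible and HSP70 genes. With a mean above 200 or identical values left out, Hspb1 left the small heat shock proteins. The cause of the remaining moves was not tested. Of 3 probe sets of Hspa1b, that of Hspa2 and the rest described in full, none moved by 1 SD under the 4 alternatives run on single probe sets. These 4 alternatives only rescale the same 2 arrays, so small shifts were to be had in any case. They cannot show how far a difference would vary between cultures. No paired analysis was possible because each condition had 1 array, and no array could be left out for the same reason. Probe sets at the lowest value, such as that of Hspa1a, limit what can be seen.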
